A study of Homo sapiens with 6 samples.

Results

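CD70, TNFSF10 and 7 receptors of the TNF and death receptor families (TNFRSF10A, TNFRSF10B, TNFRSF1A, TNFRSF12A, TNFRSF21, FAS and LTBR) were followed by RNA-Seq in SW480 cells after knockdown of PCYT2, the enzyme that makes CDP-ethanolamine for phosphatidylethanolamine synthesis. The 9 genes were found by their Ensembl identifiers among 19437 genes, and all 9 passed the expression limit that left 12755 genes for testing. They were chosen by family, with CD70 selected on its own measured level, since its difference between shPcyt2-1 and shNT ranked 7 from the lowest of the 12755 genes. For that reason the values of the 9 genes with shPcyt2-1 are given as a description without a p value.

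SW480 is an established human colorectal cancer line. The libraries fell into 3 groups of 2: cells with a control hairpin (shNT), cells with the hairpin shPcyt2-1 and cells with the hairpin shPcyt2-2. According to the methods of the study, hairpins were cloned into pLKO.1 and delivered by lentivirus, and infected cells were selected with puromycin; these steps were not stated separately for shNT, and whether the cells were pools or clones was not stated. No age, time point or further treatment was labelled, and nothing said that the 2 libraries of a group came from separate cultures, so p values measure the spread between libraries, which may be technical. Values were FPKM, which count sequenced fragments by gene length and library size, and differences are on log2(FPKM + 1), which understates changes of low genes. The FPKM of a library summed to between 396467 and 402612.

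Ligands of the TNF superfamily are trimers on the cell surface or in solution that cluster their receptors. Death receptors such as FAS and the TRAIL receptors recruit FADD and caspase-8 through their death domains, whereas TNFRSF1A binds TRADD and RIPK1 and can signal through TRAF proteins to NF-kB. LTBR and TNFRSF12A have no death domain and act largely through TRAFs and the kinase MAP3K14. CD70 binds CD27 on lymphocytes and is found on activated lymphocytes and on some tumor cells.

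PCYT2 itself was measured first. It stood at 11.6 and 13.8 FPKM in the shNT libraries, at 7.11 and 7.36 FPKM with shPcyt2-1, and at 6.71 and 6.18 FPKM with shPcyt2-2. All 4 hairpin libraries lay below both shNT libraries. The difference from shNT was -0.73 ± 0.10 (SE) with shPcyt2-1 (adjusted p = 0.00202) and -0.88 ± 0.10 with shPcyt2-2 (adjusted p = 0.00257; limma), and the hairpins differed from each other by -0.15 (95% interval -0.37 to 0.08, adjusted p = 0.31). The PCYT2 gene overlaps ANAPC11 on the opposite strand, a gene at 97.4 FPKM, and whether the counting used strand was not stated, so reads from the overlap could not be told apart.

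CD70 had opposite positions under the 2 hairpins. Its level was 3.18 and 3.82 FPKM with shNT, 0.752 and 0.678 FPKM with shPcyt2-1, and 5.31 and 4.76 FPKM with shPcyt2-2. In these bulk libraries fewer cells that express a gene and less RNA per cell cannot be told apart. The 3 groups did not overlap, and the shPcyt2-1 libraries were lowest and the shPcyt2-2 libraries highest. The libraries of the hairpins lay on opposite sides of both shNT libraries in 12.7% of all tested genes. Mean CD70 was 4.89-fold lower with shPcyt2-1 than with shNT (0.715 ± 0.0522 against 3.50 ± 0.452 FPKM, SD, n = 2), and the difference was -1.39 ± 0.11 (SE) on the log2 scale. With shPcyt2-2 mean CD70 was 5.04 ± 0.388 FPKM, 1.44-fold higher than with shNT, and it passed the test at 0.43 ± 0.11 (SE, adjusted p = 0.0409, limma over all genes). That comparison used the same shNT libraries as the one that selected CD70. Without the expression limit CD70 did not pass with shPcyt2-2 (adjusted p = 0.122, limma). Its call was lost without any one of the 6 libraries, where the adjusted p was 0.0537 to 0.182, and with a pseudocount of 0.1, where it was 0.0592, while the difference stayed between 0.32 and 0.53. Between the hairpins mean CD70 was 7.04-fold higher with shPcyt2-2, a difference of 1.81 ± 0.11. The gene lies at chr19:6583183-6604103 (GRCh38, minus strand), and no other listed gene overlaps it.

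**Figure D1:**
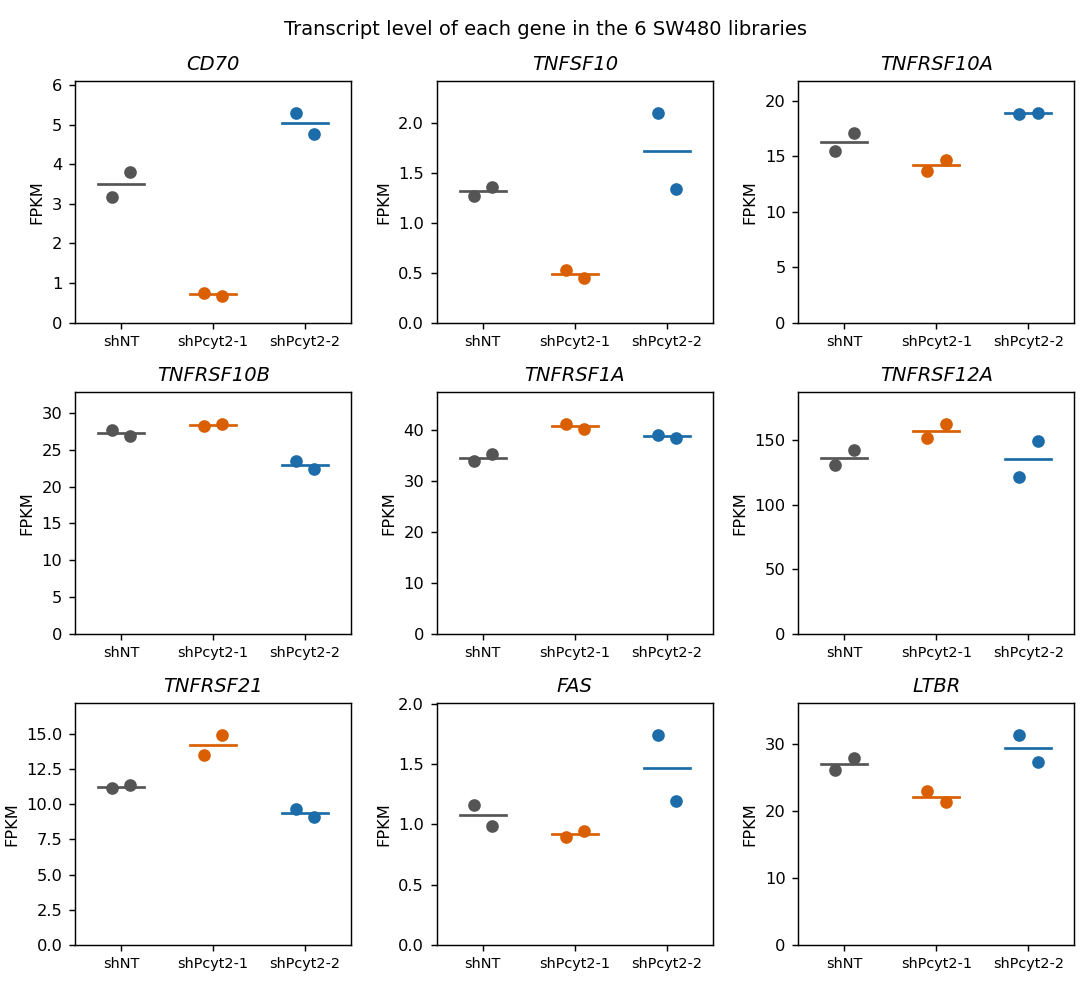
Level of each of the 9 genes in FPKM on a linear axis from 0; points are single libraries and horizontal lines the means of 2. CD70 was below 1 FPKM in both shPcyt2-1 libraries and above 4 FPKM in both shPcyt2-2 libraries and TNFSF10 was also lowest in the shPcyt2-1 libraries.

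TNFSF10, which encodes TRAIL, the ligand of TNFRSF10A and TNFRSF10B, was also lowest with shPcyt2-1. Its level was 1.27 and 1.36 FPKM with shNT, 0.524 and 0.449 FPKM with shPcyt2-1, and 2.11 and 1.34 FPKM with shPcyt2-2. Both shPcyt2-1 libraries were below every other library, whereas the shPcyt2-2 libraries overlapped the shNT range. The difference was -0.64 ± 0.14 (SE) with shPcyt2-1, a 2.70-fold lower mean. With shPcyt2-2 it was 0.22 ± 0.14 (95% interval -0.10 to 0.54, adjusted p = 0.319), and it was 0.42 without replicate 2 and 0.01 without replicate 1 of shPcyt2-2.

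Of the 16 other TNF family ligands, 13 were listed in at least 1 library and 5 passed the expression limit. TNFSF9 and TNFSF12 fell with shPcyt2-1, and none of the 5 rose, where 10.1% of all tested genes were called lower and 16.6% higher. TNFSF9, the ligand of the T cell costimulator TNFRSF9, stood at 3.86 and 4.13 FPKM with shNT, 1.79 and 2.38 FPKM with shPcyt2-1, and 5.05 and 5.50 FPKM with shPcyt2-2. Its groups did not overlap and had the order seen for CD70. The difference was -0.70 ± 0.12 (SE) with shPcyt2-1 (adjusted p = 0.00423), 0.33 ± 0.12 with shPcyt2-2 (adjusted p = 0.0943) and 1.03 ± 0.12 between the hairpins (adjusted p = 0.00053). TNFSF12, which encodes TWEAK, the ligand of TNFRSF12A, changed by -0.65 ± 0.11 with shPcyt2-1 (adjusted p = 0.00444), from 3.62 and 3.75 to 2.08 and 1.91 FPKM, and stood at 3.20 and 2.64 FPKM with shPcyt2-2. Its difference between the hairpins, 0.39 (adjusted p = 0.0294), did not pass without either shPcyt2-1 library or without shPcyt2-2 replicate 1 (adjusted p = 0.0927 to 0.158). TNFSF12 ends 0.402 kb from TNFSF13, and reads joining the genes may be split between them. With shPcyt2-2 against shNT limma called 0 of the 5 ligands, where 12.5% of all tested genes were called, and 3 had an unadjusted p under 0.05. FASLG and TNF, ligands of FAS and TNFRSF1A, were scarce. FASLG was at 0.734 to 1.05 FPKM in the 6 libraries, and TNF was listed in 1 library alone, at 0.0149 FPKM in shPcyt2-2 replicate 2. CD27, the receptor of CD70, was at most 0.161 FPKM and was not listed in shPcyt2-1 replicate 1.

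The 250 bases before the RefSeq start sites of TNFSF10 and TNFSF9 are shown because both ligands were low with shPcyt2-1 and both windows hold a TATA sequence, TATAAA, close to the start. They were picked after the values were seen and for that sequence, so the shared TATAAA follows from the choice and links nothing to the decrease. TNFSF12, which also fell with shPcyt2-1, is not among the windows read. Of the 9 genes 5 matched a RefSeq promoter entry (GRCh38.p14); CD70, TNFRSF12A, TNFRSF10A and TNFRSF10B did not. The TNFSF10 window is chr3:172523431-172523680 (minus strand) and the TNFSF9 window is chr19:6530776-6531025 (plus strand). Both are written 5′ to 3′, and capitals mark TATAAA and, in TNFSF9, the GC box GGGCGG.
TNFSF10: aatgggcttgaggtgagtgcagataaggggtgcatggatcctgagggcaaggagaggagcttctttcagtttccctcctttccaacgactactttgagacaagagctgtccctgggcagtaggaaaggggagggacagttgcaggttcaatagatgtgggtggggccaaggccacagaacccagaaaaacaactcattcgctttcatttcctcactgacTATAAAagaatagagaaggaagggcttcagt
TNFSF9: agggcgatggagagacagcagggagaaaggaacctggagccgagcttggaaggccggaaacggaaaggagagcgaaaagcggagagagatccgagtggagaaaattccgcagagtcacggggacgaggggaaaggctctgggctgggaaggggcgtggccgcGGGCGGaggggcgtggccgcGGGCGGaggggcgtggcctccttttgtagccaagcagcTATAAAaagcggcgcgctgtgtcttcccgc

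TATAAA begins 31 bases before the TNFSF10 start and 30 bases before the TNFSF9 start. Over 35116 promoters of 250 bases, 10.7% hold TATAAA on either strand and 42.6% hold GGGCGG. Otherwise the windows differed: the TNFSF10 window had 49.6% G or C and 2 CpG, and the TNFSF9 window 64.4% and 23 CpG with GGGCGG at 88 and 68 bases before the start. In the windows of TNFRSF1A, TNFRSF21, FAS and LTBR no TATAAA was found. None of the 6 windows held the TEAD letters GGAATG (11.9% of all promoters) or a kappa B motif (9.96%), and FAS alone held the AP-1 letters TGANTCA (6.57%), 242 bases before its start. These are matches of letters on both strands, not sites shown to be bound.

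Of the receptors of TRAIL, TNFRSF10B fell with shPcyt2-2 and TNFRSF10A did not pass the test. TNFRSF10B was at 27.8 and 26.9 FPKM with shNT, at 28.3 and 28.6 FPKM with shPcyt2-1, and at 23.5 and 22.4 FPKM with shPcyt2-2. The shPcyt2-2 libraries were below all others. The difference was -0.24 ± 0.07 (SE) with shPcyt2-2 (adjusted p = 0.0483) and 0.05 ± 0.07 with shPcyt2-1, which became -0.02 with median-ratio scaling. Without the expression limit the adjusted p with shPcyt2-2 was 0.0758, and without the trend of variance on mean 0.0868 (limma). The call with shPcyt2-2 was lost without any one of the 6 libraries, where the adjusted p was 0.0883 to 0.145, and with a pseudocount of 0.1 (adjusted p = 0.0505). TNFRSF10A was at 15.4 and 17.1 FPKM with shNT, at 13.7 and 14.7 FPKM with shPcyt2-1, and at 18.8 and 18.9 FPKM with shPcyt2-2. Its 3 groups did not overlap and had the order seen for CD70, with differences of -0.18 ± 0.08 with shPcyt2-1 and 0.21 ± 0.08 with shPcyt2-2 (95% interval 0.02 to 0.39, adjusted p = 0.123), so with shPcyt2-2 the value did not pass the test.

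TNFRSF10D, a decoy receptor for TRAIL with a truncated death domain, was higher with both hairpins. Its level was 8.85 and 9.71 FPKM with shNT, 11.5 and 12.7 FPKM with shPcyt2-1, and 12.2 and 13.3 FPKM with shPcyt2-2. The 4 hairpin libraries were above both shNT libraries. The difference was 0.35 ± 0.09 (SE) with shPcyt2-1 (adjusted p = 0.0229) and 0.42 ± 0.09 with shPcyt2-2 (adjusted p = 0.0216). With median-ratio scaling the adjusted p with shPcyt2-1 was 0.0695. Without the expression limit it was 0.062 with shPcyt2-1 and 0.0781 with shPcyt2-2 (limma). The call with shPcyt2-1 was lost without shNT replicate 1 or either shPcyt2-1 library (adjusted p = 0.0581 to 0.151), and that with shPcyt2-2 without any shNT or shPcyt2-2 library (adjusted p = 0.0536 to 0.0892). TNFRSF6B, a soluble decoy for FASLG, was at 29.4 to 37.8 FPKM and passed in no contrast, and TNFRSF10C, a further decoy for TRAIL, was at most 0.484 FPKM and was not tested.

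TNFRSF1A, the main death domain receptor for TNF, was at 33.9 and 35.3 FPKM with shNT, at 41.2 and 40.1 FPKM with shPcyt2-1, and at 38.9 and 38.5 FPKM with shPcyt2-2. Every hairpin library was above both shNT libraries. The differences were 0.23 ± 0.06 (SE) with shPcyt2-1 and 0.16 ± 0.06 with shPcyt2-2 (95% interval 0.02 to 0.30, adjusted p = 0.128). With median-ratio scaling they were 0.15 and 0.11. TNFRSF1B, the other TNF receptor, which lacks a death domain, was at 40.1 to 46.1 FPKM in all 6 libraries.

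TNFRSF21, which encodes death receptor 6, showed the reverse order of CD70. It was at 11.1 and 11.4 FPKM with shNT, at 13.5 and 14.9 FPKM with shPcyt2-1, and at 9.68 and 9.10 FPKM with shPcyt2-2. The groups did not overlap, with shPcyt2-1 highest and shPcyt2-2 lowest. The differences were 0.31 ± 0.08 (SE) with shPcyt2-1, -0.24 ± 0.08 with shPcyt2-2 (adjusted p = 0.0945) and -0.55 ± 0.08 between the hairpins. With median-ratio scaling the value with shPcyt2-2 passed the test (-0.29, adjusted p = 0.0485).

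FAS, the receptor of FASLG, was the lowest of the 7 receptors. Its level was 1.17 and 0.986 FPKM with shNT, 0.897 and 0.949 FPKM with shPcyt2-1, and 1.74 and 1.19 FPKM with shPcyt2-2. The shPcyt2-2 libraries were above the others, one of them by a small margin. The differences were -0.11 ± 0.13 (SE) with shPcyt2-1 and 0.24 ± 0.13 with shPcyt2-2 (95% interval -0.05 to 0.54, adjusted p = 0.237). When single libraries were left out, FAS ranged from 0.08 to 0.40 with shPcyt2-2 and from 0.19 to 0.51 between the hairpins. ACTA2, which overlaps FAS on the opposite strand, was at 3.30 FPKM against 1.16 FPKM for FAS over the 6 libraries, so a share of the FAS reads could not be told apart from it.

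LTBR, the lymphotoxin beta receptor, was at 26.1 and 27.9 FPKM with shNT, at 23.0 and 21.3 FPKM with shPcyt2-1, and at 31.3 and 27.3 FPKM with shPcyt2-2. Both shPcyt2-1 libraries were below all others, and the shPcyt2-2 libraries overlapped the shNT range. The differences were -0.28 ± 0.09 (SE) with shPcyt2-1 and 0.11 ± 0.09 with shPcyt2-2 (95% interval -0.08 to 0.31, adjusted p = 0.396). When single libraries were left out, the value with shPcyt2-2 ranged from 0.02 to 0.21. SCNN1A overlaps LTBR on the opposite strand at 31.6 FPKM. LTB, a subunit of the LTBR ligand, was at most 0.170 FPKM.

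TNFRSF12A, the TWEAK receptor, was the most abundant of the 9 genes, above 97.0% of the tested genes. It was at 130 and 142 FPKM with shNT, at 152 and 163 FPKM with shPcyt2-1, and at 121 and 149 FPKM with shPcyt2-2. The shPcyt2-1 libraries were highest, and the shPcyt2-2 libraries spanned the shNT range. The differences were 0.21 ± 0.09 (SE) with shPcyt2-1 and -0.02 ± 0.09 with shPcyt2-2 (95% interval -0.23 to 0.20, adjusted p = 0.921). The last value changed sign without shNT replicate 2 (0.04) and without shPcyt2-2 replicate 1 (0.13).

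**Figure D2:**
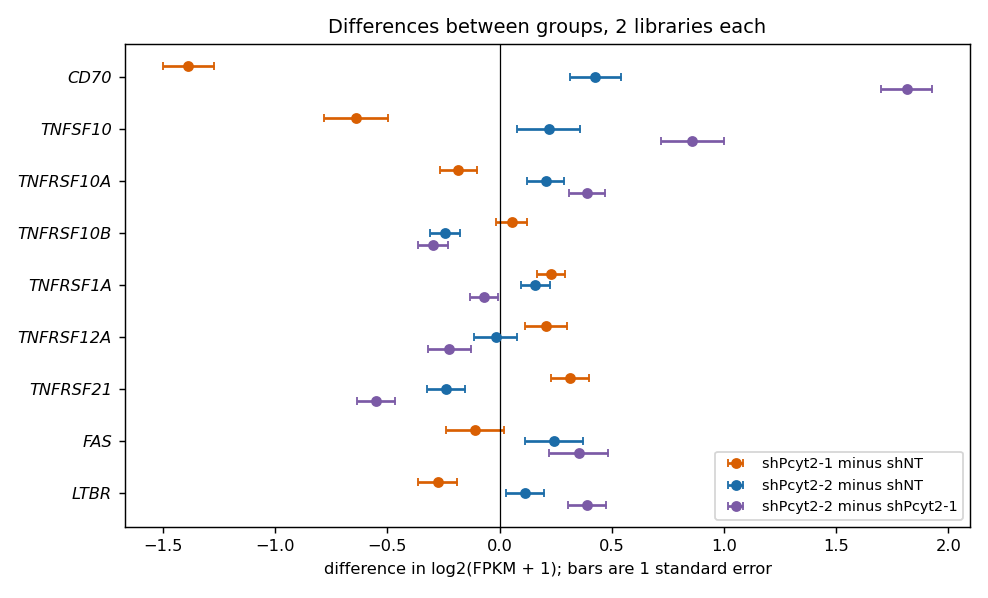
Differences between groups in log2(FPKM + 1) for the 9 genes, with bars of 1 standard error from the limma fit; each group has 2 libraries. CD70 has the widest separation of the hairpins (-1.39 against 0.43), and TNFRSF1A lies on the same side of 0 with both.

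Levels kept nearly the same order in the 3 groups. In shNT it was TNFRSF12A, TNFRSF1A, TNFRSF10B, LTBR, TNFRSF10A, TNFRSF21, CD70, TNFSF10 and FAS, and of these neighbors the ranges of TNFRSF10B and LTBR overlapped. With shPcyt2-1 the order at the low end was FAS, CD70 and TNFSF10, and the ranges of TNFRSF21 and TNFRSF10A overlapped. With shPcyt2-2 LTBR stood above TNFRSF10B, and the ranges of TNFSF10 and FAS overlapped. These comparisons between genes are of FPKM, a level per length.

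As a description, 5 of the 9 genes lay past the call threshold (an adjusted p of 0.05) with shPcyt2-1, 2 on the higher and 3 on the lower side, where 26.7% of all tested genes did (16.6% higher and 10.1% lower). This contrast selected CD70, so the count is no test of the 9 genes, and nothing is read from it. With median-ratio scaling, which lowered the median of all genes by less than 0.1, the counts were 3 lower and 0 higher. With shPcyt2-2 against shNT 2 of 9 passed, CD70 higher and TNFRSF10B lower, against 12.5% of all genes (7.71% higher and 4.76% lower), and 5 had an unadjusted p under 0.05. Between the hairpins, a contrast that holds the same shPcyt2-1 libraries and is likewise a description, 6 lay past the threshold, 4 higher and 2 lower, against 27.2% of all genes (12.9% higher and 14.3% lower). The median difference of the 9 genes was -0.11, 0.16 and 0.35 in the 3 contrasts, and that of all tested genes 0.07, 0.04 and -0.02. Over all genes the calls were 2112 higher and 1294 lower with shPcyt2-1 and 984 higher and 607 lower with shPcyt2-2. Median-ratio scaling turned these into 1420 higher and 1756 lower, and 766 higher and 887 lower. Between the hairpins 1648 genes were higher and 1820 lower, which became 1867 and 1672.

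Of the 22 other receptors of the family 12 were tested. With shPcyt2-1, TNFRSF10D and RELT rose and TNFRSF18, EDAR and TNFRSF4 fell, where 16.6% of all tested genes were called higher and 10.1% lower. TNFRSF18, a costimulator known as GITR, fell by 0.64 ± 0.09 (SE, adjusted p = 0.00244), from 19.6 and 22.9 FPKM to 12.5 and 13.9 FPKM, and stood at 23.3 and 24.1 FPKM with shPcyt2-2. TNFRSF4, the costimulator OX40 whose gene lies 4.64 kb from TNFRSF18, changed by -0.45 ± 0.08 (adjusted p = 0.00551), from 22.1 and 25.0 to 16.9 and 17.0 FPKM. EDAR, the receptor of ectodysplasin A, changed by -0.52 ± 0.08 (adjusted p = 0.00298), from 43.0 and 43.5 to 29.7 and 30.0 FPKM. For these 3 genes the shPcyt2-1 libraries were below all others, the hairpins differed by 0.80, 0.52 and 0.57 (adjusted p = 0.00056, 0.00213 and 0.00128), and no library decided a call. RELT, a receptor of lymphoid tissue, rose by 0.29 ± 0.09 (adjusted p = 0.0436), which was lost with median-ratio scaling (adjusted p = 0.0955) and without any shNT or shPcyt2-1 library (adjusted p = 0.1 to 0.211). RELT also did not pass without the expression limit (adjusted p = 0.0714, limma). With shPcyt2-2, TNFRSF11B and TNFRSF10D rose and none fell, a share of 16.7% called that was near the 12.5% of all tested genes (7.71% higher and 4.76% lower). TNFRSF11B encodes osteoprotegerin, a soluble decoy that also binds TRAIL; it was at 1.73 and 1.52 FPKM with shNT, 1.81 and 1.67 FPKM with shPcyt2-1, and 3.95 and 3.09 FPKM with shPcyt2-2. Its differences were 0.78 ± 0.12 with shPcyt2-2 (adjusted p = 0.00777) and 0.72 between the hairpins (adjusted p = 0.00331). The first was lost without shNT replicate 2 or shPcyt2-2 replicate 1, and without the expression limit (adjusted p = 0.0658, limma).

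In the complex that death receptors assemble, 6 of 7 genes were tested and 1 passed with each hairpin, where 26.7% and 12.5% of all tested genes did. TRADD, the adaptor of TNFRSF1A, fell by 0.61 ± 0.10 (SE) with shPcyt2-1 (adjusted p = 0.00394), from 17.1 and 20.7 FPKM to 12.2 and 11.9 FPKM. With shPcyt2-2 it was at 19.2 and 17.3 FPKM, within the shNT range, and the hairpins differed by 0.56 (adjusted p = 0.00404). CASP8, the initiator caspase of death receptors, rose by 0.54 ± 0.11 with shPcyt2-2 (adjusted p = 0.0189), from 5.86 and 4.75 FPKM to 8.72 and 7.64 FPKM, and was at 6.84 and 6.47 FPKM with shPcyt2-1 (0.28 ± 0.11, adjusted p = 0.09). The CASP8 call was lost without shNT replicate 2 or shPcyt2-2 replicate 1, and without the expression limit (adjusted p = 0.086, limma). FADD, the shared adaptor, was at 31.2 to 34.3 FPKM in all 6 libraries. CFLAR, which encodes the caspase-8 regulator c-FLIP, was at 3.71 and 3.38 FPKM with shNT and 4.33 and 3.29 FPKM with shPcyt2-2. With shPcyt2-1 it was at 4.29 and 5.68 FPKM (0.39 ± 0.14, adjusted p = 0.0734, limma), and it passed in no contrast.

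Of 15 TRAFs and ubiquitin regulators 13 were tested. TRAF5, an adaptor of several receptors including CD27, and OTULIN, which trims linear ubiquitin, rose with shPcyt2-1, and none fell, where 16.6% of all tested genes were called higher and 10.1% lower. TRAF5 changed by 0.41 ± 0.11 (SE, adjusted p = 0.0223), a call lost without shNT replicate 2 or shPcyt2-1 replicate 1. The TRAF5 call was also lost without the expression limit (adjusted p = 0.0712, limma). OTULIN changed by 0.39 ± 0.09 (adjusted p = 0.0154), a call lost without shNT replicate 2 or either shPcyt2-1 library (adjusted p = 0.0665 to 0.107). With shPcyt2-2 limma called 0 of 13, where 12.5% of all tested genes were called, and 5 had an unadjusted p under 0.05. BIRC3, an inhibitor of apoptosis that NF-kB induces, was at 0.514 and 0.462 FPKM with shNT, near the expression limit, and at 1.10 and 0.718 FPKM with shPcyt2-2 (0.35 ± 0.12, adjusted p = 0.0907). TRAF4 was nearer the threshold and did not pass either. Its differences were 0.24 with shPcyt2-1 and 0.27 with shPcyt2-2 (adjusted p = 0.0501 and 0.0531, limma), with every hairpin library above both shNT libraries.

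Of the mitochondrial apoptosis genes and executioner caspases, 6 of 10 tested genes rose with shPcyt2-1 and none fell. Of all tested genes 16.6% were called higher and 10.1% lower. With median-ratio scaling 3 of this list rose. Without the expression limit 4 genes over all pathway lists were called higher with shPcyt2-1, namely CASP6, MCL1, BAK1 and OTULIN. Leaving out either shPcyt2-1 library also cost some of the 6 their calls. The median difference of this list was 0.27, against 0.07 for all tested genes. CASP6, an executioner caspase, rose by 0.77 ± 0.09 (SE, adjusted p = 0.00121), from 4.48 and 4.37 FPKM to 8.62 and 7.89 FPKM, and was at 4.88 and 4.89 FPKM with shPcyt2-2. The hairpins differed in CASP6 by -0.65 (adjusted p = 0.00136). MCL1, an antiapoptotic BCL2 relative, rose from 39.1 and 39.0 FPKM to 50.8 and 51.0 FPKM with shPcyt2-1 and 51.2 and 50.3 FPKM with shPcyt2-2 (adjusted p = 0.00364 and 0.00893). BAK1, which permeabilizes mitochondria, rose with shPcyt2-1 by 0.38 ± 0.08 (adjusted p = 0.0105). The other 3 that rose were BCL2L1, DIABLO and CYCS, whose calls were lost without the expression limit and without shPcyt2-1 replicate 2. The list thus held genes that promote and genes that restrain cell death among those that rose.

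With shPcyt2-2, MCL1 rose and CASP9 fell among the 10 tested genes of this list, where 7.71% of all tested genes were called higher and 4.76% lower. CASP9, the initiator caspase of the apoptosome, was at 5.68 and 5.59 FPKM with shNT, 8.0 and 6.30 FPKM with shPcyt2-1, and 3.88 and 2.93 FPKM with shPcyt2-2. Both shPcyt2-2 libraries were the lowest and both shPcyt2-1 libraries the highest. The difference was -0.60 ± 0.14 (SE) with shPcyt2-2 (adjusted p = 0.0241) and -0.89 between the hairpins (adjusted p = 0.00197). The first was lost without any shNT or shPcyt2-2 library, and without the expression limit (adjusted p = 0.113, limma). The call of MCL1 with shPcyt2-2 was lost without shPcyt2-2 replicate 1 (adjusted p = 0.0807), and that of BAK1 with shPcyt2-1 without shPcyt2-1 replicate 1 (adjusted p = 0.0771).

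All 16 NF-kB subunits, inhibitors and kinases were tested, and 1 passed with shPcyt2-1 and 4 with shPcyt2-2, where 26.7% and 12.5% of all tested genes did. NFKBIB, an inhibitor of NF-kB, was at 20.9 and 21.0 FPKM with shNT, 24.2 and 26.0 FPKM with shPcyt2-1, and 16.6 and 17.1 FPKM with shPcyt2-2. Its groups did not overlap, and it changed by 0.25 ± 0.07 (SE, adjusted p = 0.034) and -0.30 ± 0.07 (adjusted p = 0.0304), with -0.55 between the hairpins (adjusted p = 0.000973). MAP3K14, the kinase of the noncanonical arm, rose with shPcyt2-2 by 0.52 ± 0.11 (adjusted p = 0.0232). RELB, the NF-kB subunit of the same arm, fell by 0.52 ± 0.10 (adjusted p = 0.015), from 12.6 and 15.4 FPKM to 9.76 and 9.13 FPKM. IKBKG, the regulatory subunit of the IKK complex, fell by 0.42 ± 0.09 (adjusted p = 0.0241). Each of these calls against shNT was lost when some single libraries were left out, whereas the difference of NFKBIB between the hairpins passed in all 6 such fits (adjusted p = 0.0013 to 0.0129). For NFKBIB with shPcyt2-1 and MAP3K14 these were any shNT library or any library of the hairpin (adjusted p = 0.067 to 0.235 and 0.062 to 0.0857). For NFKBIB with shPcyt2-2, RELB and IKBKG they were shNT replicate 2 or either shPcyt2-2 library (adjusted p = 0.0734 to 0.147, 0.0672 to 0.0871 and 0.0818 to 0.111). With median-ratio scaling NFKBIB did not pass with shPcyt2-1 (adjusted p = 0.135). Without the expression limit MAP3K14, RELB and IKBKG did not pass with shPcyt2-2 (adjusted p = 0.0953, 0.0779 and 0.0788, limma). In that fit NFKBIB did not pass with shPcyt2-1, nor with shPcyt2-2 (adjusted p = 0.0686). NFKBIB overlaps SIRT2 (16.8 FPKM) on the opposite strand.

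**Figure D3:**
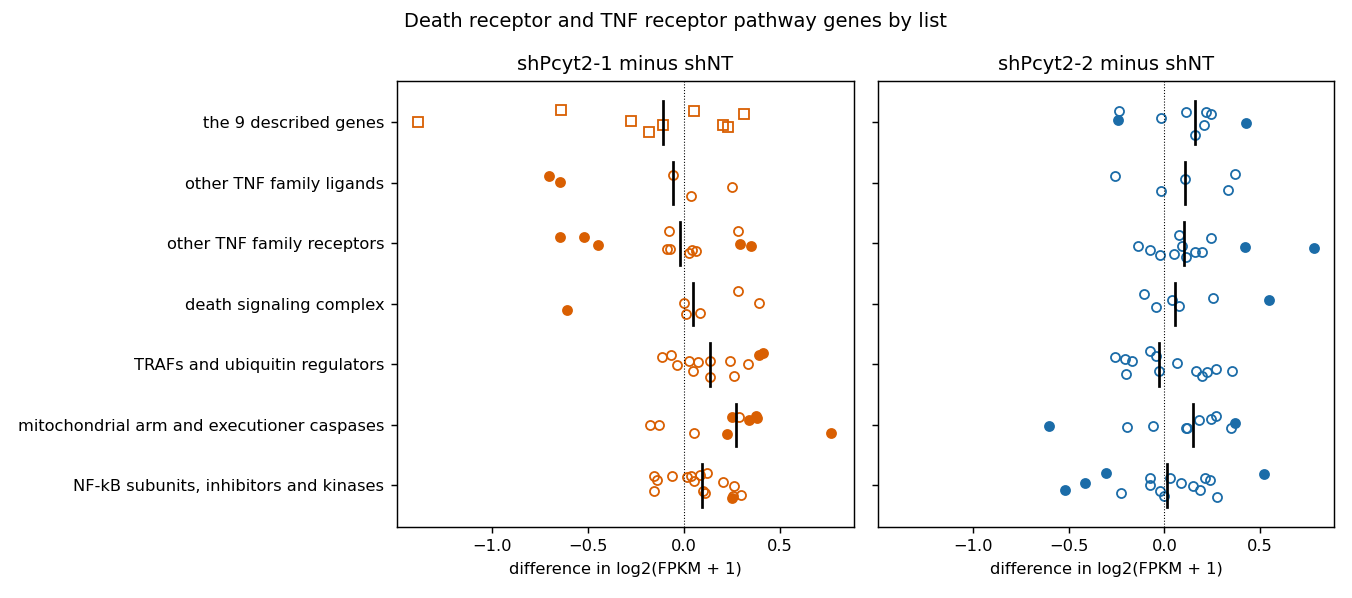
Difference from shNT in log2(FPKM + 1) for each tested gene of the pathway lists, shPcyt2-1 at left and shPcyt2-2 at right; filled circles have an adjusted p under 0.05, open circles do not, black bars are list medians, and open squares are the 9 genes with shPcyt2-1, which are a description without a p value. The 6 filled circles of the mitochondrial list all lie to the right with shPcyt2-1. With median-ratio scaling 3 genes of that list were called higher, and BCL2L1, DIABLO and CYCS were not called without the expression limit.

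Over the 87 genes of these lists 62 were tested. With shPcyt2-1 11 rose and 6 fell (5 and 6 with median-ratio scaling, and 4 and 6 without the expression limit). With shPcyt2-2 5 rose and 4 fell (1 and 0 without the expression limit). Between the hairpins 11 were higher and 10 lower with shPcyt2-2. The share called was 27.4%, 14.5% and 33.9%, beside 26.7%, 12.5% and 27.2% of all tested genes, so with each hairpin it was near the background. The medians were 0.07, 0.08 and -0.01, close to the 0.07, 0.04 and -0.02 of all genes.

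CD70 sits in a cluster of TNF ligand genes, with TNFSF9 47.3 kb to one side and TNFSF14 57.2 kb to the other and no listed gene between. TNFSF14 was at most 0.0348 FPKM. Within 250 kb of the CD70 start 13 other genes were tested, a window set after the values were seen. Of these, 6 fell with shPcyt2-1 and none rose, where 10.1% of all tested genes were called lower and 16.6% higher, and 2 fell with shPcyt2-2, where 4.76% were called lower. Besides TNFSF9, given above, the 6 included PSPN, the neurotrophic factor persephin, at -0.68 ± 0.22 (SE, adjusted p = 0.0469), TRIP10, an adaptor of the actin cytoskeleton, at -0.60 ± 0.08 (adjusted p = 0.00166) and TUBB4A, a beta tubulin, at -0.42 ± 0.13 (adjusted p = 0.0398). TUBB4A was at 2.24 and 2.97 FPKM with shNT, 1.51 and 1.86 FPKM with shPcyt2-1, and 3.53 and 3.87 FPKM with shPcyt2-2, the order seen for CD70 and TNFSF9, and its difference with shPcyt2-2 was 0.39 (adjusted p = 0.0774). The 2 that fell with shPcyt2-2 were ALKBH7 and GTF2F1 (-0.39 and -0.32, adjusted p = 0.0145 and 0.0202). GTF2F1 and DENND1C were also among the 6 that fell with shPcyt2-1 (-0.30 each, adjusted p = 0.0132 and 0.0311, limma). With shPcyt2-2 DENND1C differed by -0.26 (adjusted p = 0.0755). Except for TNFSF9, the calls of these neighbors were not examined with other settings or with libraries left out. PSPN, TUBB4A and DENND1C lay near the threshold with shPcyt2-1, and PSPN was low, at 0.935 and 1.85 FPKM with shNT.

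Over the 6 libraries the tested genes nearest to CD70 in log2(FPKM + 1) relative to shNT were IGFBP7, CDA, SAA1, MRC2 and COL6A2, at Euclidean distances of 0.351, 0.374, 0.378, 0.467 and 0.478. IGFBP7 is a secreted growth factor binding protein, CDA is cytidine deaminase, SAA1 an acute phase protein, MRC2 a collagen receptor and COL6A2 a collagen chain. SAA1, as one example, was at 2.66 and 2.54 FPKM with shNT, 0.696 and 0.522 FPKM with shPcyt2-1, and 4.06 and 3.92 FPKM with shPcyt2-2. All 5 were lowest in the shPcyt2-1 libraries. This likeness was measured on the libraries that selected CD70 and is a description.

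**Figure D4:**
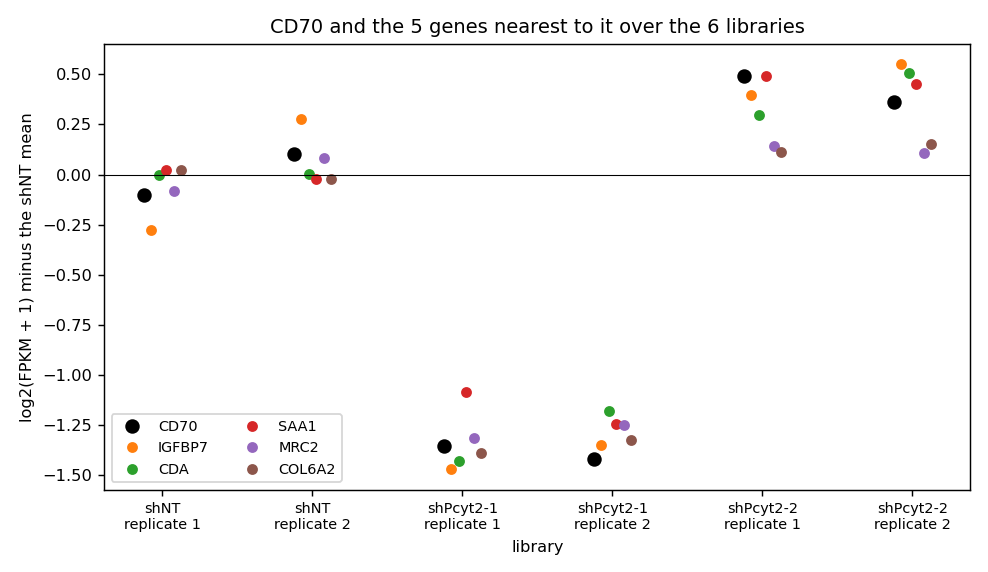
log2(FPKM + 1) minus the shNT mean in each of the 6 libraries for CD70 and the 5 nearest genes; each point is 1 library. All 6 genes lie more than 1 below the shNT mean in both shPcyt2-1 libraries.

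Marker genes were read beside these values. Of 9 colon epithelial markers 8 passed the limit, and their summed level was 8212 and 8771 FPKM with shNT, 8432 and 8526 FPKM with shPcyt2-1, and 6258 and 6555 FPKM with shPcyt2-2. Nearly all of that sum was keratin, with shNT means of 3731 FPKM for KRT8, 3364 FPKM for KRT18 and 1055 FPKM for KRT19. These 3 keratins fell with shPcyt2-2 (-0.41, -0.45 and -0.44, adjusted p = 0.0048, 0.00314 and 0.00539), and CDX2 and LGALS4 fell with shPcyt2-1 (-0.65 and -0.58, adjusted p = 0.00136 and 0.0161). With shPcyt2-2, CDH1, VIL1 and EPCAM had differences of 0.19, 0.14 and 0.11, which did not pass (adjusted p = 0.12, 0.193 and 0.309), and both shPcyt2-2 libraries were above both shNT libraries for CDH1 and VIL1. CDX2 and LGALS4 had differences of -0.06 and -0.37 with shPcyt2-2 (adjusted p = 0.677 and 0.11). EPCAM was at 258 to 312 FPKM, and KRT20, a marker of mature colonocytes, was at most 0.095 FPKM. Leukocyte markers, relevant because CD70 and its receptor are lymphocyte genes, summed to 1.12 to 2.02 FPKM over 10 genes, with CD14 the most abundant (0.713 to 1.17 FPKM). PTPRC, CD2, MS4A1 and ITGAM were listed in no library. Stromal and endothelial markers summed to 2.04 to 3.10 FPKM over 7 genes, led by COL1A1, and were highest in the shPcyt2-2 libraries. The part of the keratin, CDX2 and stromal differences in the values of CD70 and the receptors was not tested.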

How the data were processed

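RNA-Seq libraries of SW480 cells carrying shNT, shPcyt2-1 or shPcyt2-2 were analysed (3 groups of 2 libraries). The authors deposited 1 table per library of normalized values, read as FPKM from the values themselves; TPM over part of the genes remains possible, and tables list only genes above 0, so an unlisted gene was set to 0. Both of 2 library kits appear in the labels of every sample, with no statement of where each was used. The submitters' processing notes name GRCh38, GRCm38 and mm10; aligner and annotation are not given in the sources used here. Names and positions came from GENCODE 29 (GRCh38). No mitochondrial protein-coding gene is listed.

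Of 21539 identifiers (19504 with a GENCODE name), 115 repeated ones were summed. Merging 1143 groups of identifiers that had identical values gave 19437 genes. Genes with a mean of at least 0.5 FPKM (12755) were tested on log2(FPKM + 1) in limma 3.58.1 (R 4.3.3) using its trend of variance on mean, 1 spread for the 3 groups and Benjamini-Hochberg adjustment over all tested genes (threshold 0.05). The test named in the methods of the study needs counts and was not used. A pooled knockdown group was not compared, since it holds the libraries that selected CD70. The fit was also run on simulated data drawn under its own assumptions, which cannot show whether these libraries meet them. Depth in reads is unknown: the values of genes under 110 bases gave relative depths of 5.25 to 6.89, but 17.8% to 25.7% of them were within 1% of whole multiples, so counts were not recovered.

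The 9 genes and the pathway lists were chosen with earlier results of these data known. Some genes of the pathway lists are not reported here, and the counts leave them out. Named genes were PCYT2, the 9 genes, CD27, FASLG and TNF, and from each pathway list for each hairpin the called genes (adjusted p under 0.05) of largest difference, at most 3 in each direction, provided that both hairpin libraries were above, or both below, the 2 shNT libraries. Others named (TNFRSF1B, TNFRSF6B, TNFRSF10C, LTB, FADD, CFLAR, BIRC3, TRAF4, BCL2L1, DIABLO, CYCS, and genes beside CD70) were chosen after their values were seen. Figures were drawn with matplotlib 3.10.9.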

Additional observations from a re-analysis of the deposited data

Results flagged for a closer look

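Some genes stood on opposite sides of shNT with the 2 hairpins, with both libraries of one hairpin above and both of the other below both shNT libraries. Among the 9 genes these were CD70 (difference between the hairpins, shPcyt2-2 minus shPcyt2-1, of 1.81), TNFRSF10A (0.389), TNFRSF10B (-0.297), TNFRSF21 (-0.550) and FAS (0.352), 5 of 9 genes beside 12.7% of all tested genes. These values are a description without a p value, because the shPcyt2-1 libraries selected CD70, and nothing is read from the count. With median-ratio scaling TNFRSF10B differed from shNT by -0.02 with shPcyt2-1 and -0.30 with shPcyt2-2, on the same side.

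Between the hairpins 11 pathway genes were higher and 10 lower with shPcyt2-2 by limma's test over all genes, where 12.9% and 14.3% of all tested genes were. Of these 21 calls, 10 passed in every fit that left out 1 library: TNFSF9 (1.03), TNFRSF18 (0.803), TNFRSF11B (0.716), EDAR (0.571), TRADD (0.563) and TNFRSF4 (0.523) were higher, and CASP9 (-0.888), CASP6 (-0.652), RELB (-0.606) and NFKBIB (-0.552) lower. The other 11 were lost in 2 to 5 of the 6 fits (adjusted p = 0.0512 to 0.264). These were EDA (0.425), MAP3K14 (0.406), BIRC3 (0.388), TNFSF12 (0.387) and CHUK (0.351) on the higher side, and BIRC2 (-0.409), TNFRSF25 (-0.354), TRAF5 (-0.346), RNF31 (-0.333), BCL2L1 (-0.284) and RBCK1 (-0.254) on the lower. Without the expression limit all of these 11 except BCL2L1 were lost as well (adjusted p = 0.0653 to 0.147). EDA, BIRC2, BIRC3, CHUK, TNFRSF25, RNF31, RBCK1 and BCL2L1 were named after their values were seen.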

How the results depend on the processing

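Depth in reads is unknown, and 2 libraries per group limit the precision. Without the expression limit, 2 of the 9 genes passed with shPcyt2-1 and 0 with shPcyt2-2, with 10 and 1 pathway genes and 1918 and 138 of all genes. Of the 9 genes, 3 passed with shPcyt2-1 under median-ratio scaling (11 pathway genes and 3176 of all genes) or without a mean-variance trend (2944 of all genes); with shPcyt2-2, 1 passed without the trend (1031 of all genes) and 0 with a pseudocount of 0.1 (1550 of all genes). With the settings of the report 3406 and 1591 of all genes passed. At a pseudocount of 0.1 CD70 differed by -2.14 with shPcyt2-1 and 2.66 between the hairpins. When single libraries were left out, the calls were 2 to 5, 0 to 0 and 4 to 7 of the 9 genes, 9 to 16, 0 to 9 and 11 to 21 pathway genes, and 1166 to 3355, 125 to 1897 and 1680 to 3789 of all genes with shPcyt2-1, with shPcyt2-2 and between the hairpins. A lone library was then assumed to vary like the other groups. In these fits TNFRSF12A with shPcyt2-2 ranged from -0.166 to 0.130 and MCL1 between the hairpins from -0.018 to 0.0074, and each changed sign. MCL1 was also 0.020 with median-ratio scaling. The cause was not tested. Of 715 alternative values of tested differences of named genes, 621 kept their direction and side of the threshold, 89 lost a call, 1 gained one and 4 changed sign. The differences of the 9 genes with shPcyt2-1 and between the hairpins were compared by size alone: of 234 alternative values, 219 stayed within 1 standard error and 15 moved by more.

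The labels link libraries of equal number by that number alone, and whether they were handled together is not stated. Correlations of their deviations were 0.0027, 0.0628 and 0.193 between groups. With the replicate number as a replicate block, 6, 2 and 7 of the 9 genes and 3887, 2041 and 3877 of all genes passed, and the difference of CD70 with shPcyt2-2 stayed at 0.43. Without that block 5, 2 and 6 of the 9 genes and 3406, 1591 and 3468 of all genes passed. A batch shared by libraries of equal number was not tested.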
